A study of Mus musculus with 3 samples.

Results

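Genes of circulating blood cells, 10 in all, were followed in RNA from isolated mouse brain vessels, 6 of red cells (Hba-a1, Hba-a2, Hbb-bs, Hbb-bt, Alas2 and Slc4a1) and 4 of platelets (Pf4, Ppbp, Gp9 and Gp1ba), among 29905 genes measured. They were selected on their normalized counts in these same libraries, which had been seen to be higher in vessels lacking connexin 30 (Cx30, encoded by Gjb6), so their levels and ratios are given as a description and no test was made on them. Each gene was read from its transcript row with the largest total count, and all 10 genes were found in the files.

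Polyadenylated RNA of purified brain vessels was sequenced as 50-base single reads in 3 libraries, each from the pooled vessels of 3 mice, with 1 library per group. The groups were WT mice of C57BL6 background (C57BL6 WT), WT mice of a mixed C57BL6 and BALB/c background (C57BL6/Balbc WT), and mice in which Cx30 is deleted in all tissues (Cx30Δ/Δ). All were 3 months old, and the study's methods state that only males were used for sequencing. The sample label gives the Cx30Δ/Δ library a C57BL6 background, whereas the methods give C57BL6/Balbc, so genotype and background cannot be told apart in either comparison. The labels call the tissue brain vessel, and the endothelial markers Cldn5 (12122 and 25826 normalized counts in the WT libraries, 29048 in Cx30Δ/Δ) and Pecam1 were abundant, but so were markers of neurons (Snap25), oligodendrocytes (Mbp) and choroid plexus (Ttr). The sources used here do not say whether blood was flushed from the brains before the vessels were isolated.

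Mature mammalian red cells and platelets have no nucleus. Red cells carry messenger RNA only while young, as reticulocytes, which are rich in the transcripts of α- and β-globin and of the erythroid heme enzyme. Platelets keep a small store of messenger RNA from the megakaryocytes that shed them, in which chemokines such as platelet factor 4 and the chains of the von Willebrand factor receptor stand out. In brain tissue, transcripts of this kind are often read as a trace of the blood left in the vessels, although some brain cells have also been described to transcribe globin genes.

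Which reads can reach a globin gene decides what its count means. Mouse α-globin is made from a pair of neighbouring genes, Hba-a1 (ENSMUSG00000069919, chr11:32283511-32284465) and Hba-a2 (ENSMUSG00000069917, chr11:32296489-32297298), both on the plus strand of GRCm38, and β-globin in C57BL6 mice from Hbb-bs (ENSMUSG00000052305, chr7:103826534-103827928) and Hbb-bt (ENSMUSG00000073940, chr7:103812524-103813996), both on the minus strand. The coding sequences of Hba-a1 and Hba-a2, 429 bases each with the stop codon, differ at 1 base, C577T, counted from 1 at the 5′ end of the Hba-a1 transcript. Reads that matched the genome more than once had been removed, so within the coding sequence a 50-base read could be placed on 1 of these genes only if it held that base. Holding it was not enough wherever mismatches were allowed. With up to 2 mismatches, such a read also matches the other gene, and 210 bases of Hba-a1 and 65 of Hba-a2 stayed reachable, none around this base. The stretch around the differing base is shown because, within the coding sequence, a read had to touch this base to be assigned to 1 gene. Outside it, exact 50-base windows found in no other transcript also lie in the first 210 bases of Hba-a1 and the last 65 of Hba-a2. It lies in the coding part of exon 3, at chr11:32284294-32284391 in Hba-a1 and chr11:32297111-32297208 in Hba-a2, and the base that differs is in capitals.
Hba-a1: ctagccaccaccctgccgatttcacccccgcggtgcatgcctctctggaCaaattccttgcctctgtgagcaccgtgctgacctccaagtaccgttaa
Hba-a2: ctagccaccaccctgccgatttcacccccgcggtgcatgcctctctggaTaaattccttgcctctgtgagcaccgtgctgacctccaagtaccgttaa

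The number of covered bases stood near this limit. Each α-globin gene had a second transcript row in the files, one without the first exon of Hba-a1 and the other without the end of Hba-a2, and both rows of a gene held the same counts and the same number of covered bases. The reads therefore lay in the part that the rows share, where 50 start positions hold the differing base, over 99 bases. In the order C57BL6 WT, C57BL6/Balbc WT, Cx30Δ/Δ, reads covered 98, 99 and 101 of the 699 bases of Hba-a1 and 100, 67 and 100 of the 554 bases of Hba-a2. In each library the remaining bases of both transcripts held no read.

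Upstream sequences of 4 members are shown because red cell and platelet genes share a transcription factor, GATA1, that drives both lineages. Capitals mark the common forms of the GATA motif on either strand, which are the form AGATAA with its variant TGATAA, and the form AGATAG with its variant TGATAG. Sequences and starts come from RefSeq on GRCm38.p6, where 9 of the 10 members had an entry (Slc4a1 did not), and each is written along the gene's own strand and ends before the first annotated exon. The windows are chr7:103828097-103828178 (minus strand) for Hbb-bs, chrX:150547167-150547374 for Alas2, chr11:70638872-70639121 for Gp1ba and chr5:90772185-90772434 for Pf4, the last 3 on the plus strand.
Hbb-bs: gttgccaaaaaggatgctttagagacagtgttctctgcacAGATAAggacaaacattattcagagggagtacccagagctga
Alas2: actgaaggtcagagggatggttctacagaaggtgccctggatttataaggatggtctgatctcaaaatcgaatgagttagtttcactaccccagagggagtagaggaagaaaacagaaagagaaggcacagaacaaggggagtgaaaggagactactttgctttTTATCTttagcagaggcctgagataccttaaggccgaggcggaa
Gp1ba: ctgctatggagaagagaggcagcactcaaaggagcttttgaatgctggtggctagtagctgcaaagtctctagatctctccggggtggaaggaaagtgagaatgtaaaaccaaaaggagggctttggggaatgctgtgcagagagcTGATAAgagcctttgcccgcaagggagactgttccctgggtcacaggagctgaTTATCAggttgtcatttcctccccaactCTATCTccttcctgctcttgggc
Pf4: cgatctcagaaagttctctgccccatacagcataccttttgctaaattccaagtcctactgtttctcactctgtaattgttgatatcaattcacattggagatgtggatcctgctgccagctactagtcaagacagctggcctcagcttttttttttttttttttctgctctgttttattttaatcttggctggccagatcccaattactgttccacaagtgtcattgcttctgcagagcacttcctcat

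In the 250 bases before the annotated start, 5 of the 9 members had such a motif (Hba-a1, Hba-a2, Hbb-bs, Alas2 and Gp1ba), and 26.5% of all 32851 promoters of that length did. Gp1ba held 3 matches, and Hbb-bs, Alas2 and each α-globin gene 1. Hbb-bt, Pf4, Ppbp and Gp9 had no match in this window. CACCC, on either strand, was present in 7 of the 9 members (52.0% of all promoters), and CCAAT in 6 (33.8%). The upstream windows of Hba-a1 and Hba-a2 were identical at 247 of 250 aligned bases, against 178 for Hbb-bs and Hbb-bt. These are matches of letters, and binding was not measured.

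Levels are given as normalized counts, the deposited counts divided by a median-of-ratios size factor per library, always in that same order of libraries. All 10 genes were lowest in C57BL6/Balbc WT, intermediate in C57BL6 WT and highest in Cx30Δ/Δ. For comparison, 27.3% of all genes with at least 50 normalized counts in 1 of the libraries followed this order. In bulk RNA, fewer cells of a type and less RNA per cell cannot be told apart. With 1 library per group, no difference could be set against a spread between replicates, and the 95% intervals below (exact, Clopper-Pearson) cover the sampling of reads only.

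**Figure D1:**
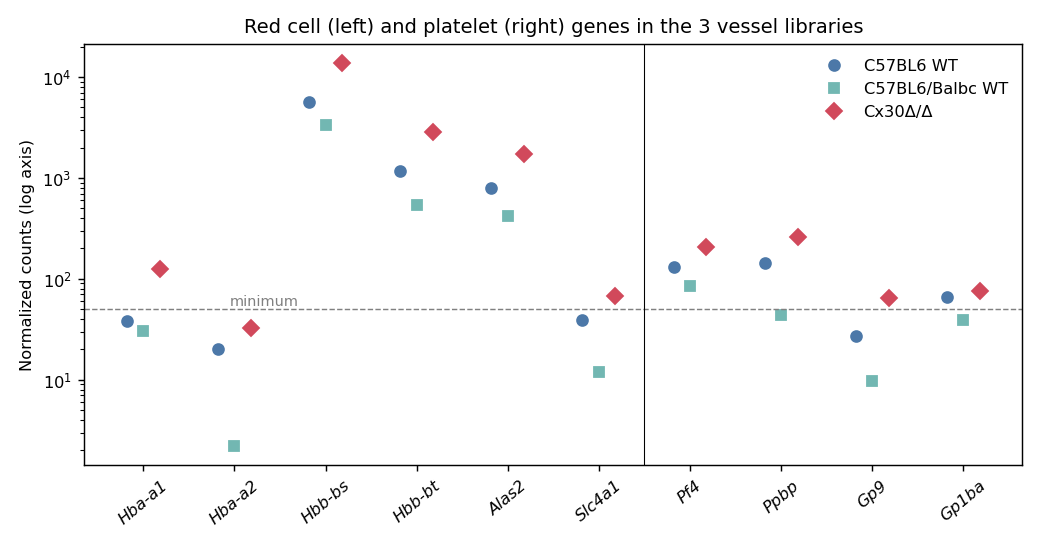
Normalized counts (log axis) of the 6 red cell genes and the 4 platelet genes, 1 point per library, with the minimum of 50 as a dashed line. For every gene the Cx30Δ/Δ point is the highest and the C57BL6/Balbc WT point the lowest, and Hba-a2 stays below the minimum in all 3 libraries.

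Among the globins, Hbb-bs, an adult β chain, was the most abundant member, with 5652, 3354 and 13725 normalized counts. Per kilobase of transcript it ranked 56th, 104th and 21st among the genes with at least 50 normalized counts in each library. Cx30Δ/Δ was 2.43-fold C57BL6 WT (interval 2.36 to 2.50) and 4.09-fold C57BL6/Balbc WT (3.94 to 4.26). Hbb-bt, its close neighbour, had 1166, 542 and 2840 normalized counts, which gave folds of 2.44 (2.28 to 2.60) and 5.24 (4.76 to 5.77). Together, Hbb-bs and Hbb-bt took 0.0323%, 0.0177% and 0.0784% of the reads on gene rows. Both β-globin genes thus stood in the same order, and no interval of their ratios reached 1.

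The adult α-globin genes had few reads. Hba-a1 had 44, 28 and 119 raw reads, or 38.4, 30.2 and 124.8 normalized counts, and Cx30Δ/Δ was 3.25-fold C57BL6 WT (2.28 to 4.70) and 4.13-fold C57BL6/Balbc WT (2.72 to 6.47). Hba-a2 had 23, 2 and 31 raw reads, below the minimum of 50 normalized counts everywhere, and its ratio to C57BL6 WT spanned no difference (1.62-fold, 0.91 to 2.91). With both genes added, the log2 ratio of α-globin was 1.43 (1.00 to 1.87) with C57BL6 WT as the base and 2.28 (1.71 to 2.90) with C57BL6/Balbc WT as the base. The β-globin pair, added in the same way, gave 1.28 (1.24 to 1.32) and 2.09 (2.04 to 2.14), inside the α-globin intervals.

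Red cells make α- and β-globin in about equal amounts, yet the counts were far apart, also per reachable start position. Per start position with a 50-base window found in no other transcript, of which the α-globin pair had 277, Hbb-bt 273 and Hbb-bs 198, the α-globin pair had 0.24, 0.11 and 0.54 reads, Hbb-bt 4.89, 1.84 and 9.92, and Hbb-bs 32.7, 15.7 and 66.1. Reads with a base difference from one α-globin gene also match the other when a mismatch is allowed, and how many were lost in this way was not tested. Levels of α- and β-globin can therefore not be set beside each other in these files. Hbb-bs and Hbb-bt were also only partly reachable, with 47.1% and 52.8% of their annotated bases in 50-base windows found in no other transcript. The counted row of Hbb-bs is 778 bases long, against 628 in the annotation that gave its start positions. Reads covered 398, 359 and 435 of its bases, more than the 296 reachable ones. Its reads per start position are therefore approximate. For Alas2, Slc4a1, Pf4, Ppbp, Gp9 and Gp1ba the whole annotated transcript was reachable. The counted rows differ in length from the annotation, most in Gp1ba (3486 bases against 2480 annotated) and Gp9 (811 against 881). Windows were compared with other transcripts only, not with the rest of the genome.

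The remaining globins were nearly silent. The embryonic genes Hba-x and Hbb-bh1 and the gene Hbb-bh2 had 0 reads in all 3 libraries, which allows up to 3 reads each. Hbb-y, the embryonic ε-type chain, had 28, 6 and 17 reads, and Hbq1a and Hbq1b at most 4. None passed the minimum. The adult genes Hbb-b1 and Hbb-b2 of the diffuse haplotype were not measured here.

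Alas2, the erythroid form of the first and rate-setting enzyme of heme synthesis (ENSMUSG00000025270, chrX:150547375-150570638, plus strand), had 799.9, 418.0 and 1707 normalized counts. Cx30Δ/Δ was 2.13-fold C57BL6 WT (1.97 to 2.32) and 4.08-fold C57BL6/Balbc WT (3.65 to 4.57). Reads covered 1894, 1901 and 1903 of its 2037 bases. Its last exon overlaps Apex2 and Mir3620 on the opposite strand over 372 bases, and since the libraries do not keep strand, reads there cannot be assigned to either strand. Alas2 was the member measured most evenly, with nearly the whole transcript covered in each library.

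The other 8 enzymes of heme synthesis, which most cells use, did not follow Alas2. All 8 passed the minimum, and none differed 2-fold in either comparison. Of all genes past the minimum, 210 of 14768 were 2-fold higher and 185 lower against C57BL6 WT. Against C57BL6/Balbc WT, 588 of 14883 were higher and 705 lower. With so few genes past 2-fold, nothing is read from the count among the 8. Their median log2 ratios to the C57BL6 and the C57BL6/Balbc WT libraries were 0.05 and 0.06. Alas1, the form used outside the erythroid lineage, had 3271, 2252 and 3432 normalized counts (log2 ratios of 0.07 and 0.61). Relative to C57BL6 WT, Alad (0.72 and 0.14) and Fech (0.11 and 0.33) were the highest, and Uros (-0.10 and -0.19) was among the lowest. Over all genes past the minimum the median log2 ratio was 0.00 in both comparisons.

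Slc4a1 encodes band 3, the chloride-bicarbonate exchanger that also anchors the red cell membrane to its skeleton (ENSMUSG00000006574, chr11:102348824-102365280, minus strand). It had 45, 11 and 65 raw reads, or 39.3, 11.9 and 68.2 normalized counts. Cx30Δ/Δ was 1.74-fold C57BL6 WT (1.17 to 2.60), under the 2-fold limit, and 5.74-fold C57BL6/Balbc WT (3.01 to 12.1). Reads fell on 1509, 510 and 2160 of its 4545 bases, so its values rest on scattered reads.

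Of 24 further genes listed for red cells, 23 were in the files and 7 passed the minimum. None was 2-fold higher in Cx30Δ/Δ in either comparison, while 1.42% and 3.95% of all genes tested were. With 7 genes, nothing is read from this count. The median log2 ratios of the 7 were -0.27 and -0.61. Most genes restricted to the erythroid lineage were near 0 reads. Epb42, a protein of the red cell membrane skeleton, had 1, 4 and 10 reads, and Klf1, an erythroid transcription factor, 7, 6 and 15. Gata1 had 5, 0 and 7 reads. Those that passed are known from other tissues too, and Add2, a β-adducin also made in neurons, was lower in Cx30Δ/Δ in both comparisons (714.3, 1264 and 332.6 normalized counts, log2 ratios of -1.10 and -1.93). Sptb (-0.43 and -1.05), Ank1 (-0.26 and -0.72), Epor (-0.27 and -0.37), Slc25a37 (-0.27 and -0.61), Tmcc2 (-0.01 and 0.23) and Bpgm, which makes 2,3-bisphosphoglycerate (0.37 and 0.99), were less far apart. The neuronal markers moved with Add2 and Sptb, since 4 of 4 were lower in Cx30Δ/Δ in both comparisons (medians of -0.55 and -0.84), and their part was not tested.

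Pf4, platelet factor 4, and Ppbp, the precursor of platelet basic protein, are chemokines stored in platelet α-granules, and their genes lie side by side (chr5:90772435-90773383 and chr5:90768518-90770063, plus strand). Pf4 had 130.1, 85.3 and 206.7 normalized counts, and Cx30Δ/Δ was 1.59-fold C57BL6 WT (1.28 to 1.98) and 2.42-fold C57BL6/Balbc WT (1.86 to 3.19). Ppbp had 142.3, 44.3 and 257.0, with folds of 1.81 (1.48 to 2.22) and 5.80 (4.16 to 8.29). Both were under 2-fold against C57BL6 WT and over it against C57BL6/Balbc WT. The intervals of the latter folds did not overlap, since Ppbp was lower in C57BL6/Balbc WT relative to Pf4 than in the other libraries.

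Gp9 and Gp1ba encode chains of the GPIb-IX-V complex, the platelet receptor for von Willebrand factor. Gp9 (chr6:87778072-87779768, plus strand) had 31, 9 and 62 raw reads, or 27.1, 9.7 and 65.0 normalized counts. It was the only platelet member over 2-fold in both comparisons (2.40-fold, 1.54 to 3.83, and 6.69-fold, 3.31 to 15.3). Gp1ba (chr11:70639144-70641820, plus strand) had 66.4, 38.9 and 75.5 normalized counts, with folds of 1.14 (0.81 to 1.59) and 1.94 (1.28 to 2.98). Of the 10 genes, Gp1ba and Hba-a2 had intervals that spanned no difference from C57BL6 WT. Chains of the same receptor thus gave different ratios, although their intervals against C57BL6/Balbc WT, at 9 to 72 reads per library, are wide.

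Of 18 further platelet genes, 16 were in the files and 12 passed the minimum, with median log2 ratios of 0.57 and 0.47. Of these, 3 were 2-fold higher in Cx30Δ/Δ than in C57BL6 WT and 4 than in C57BL6/Balbc WT. The shares of all genes tested were 1.42% and 3.95%. Tubb1, the β-tubulin of the platelet's marginal band, was past 2-fold in both (33.2, 15.1 and 79.7 normalized counts), as was Rgs18, a regulator of G protein signalling in platelets (21.8, 20.5 and 65.0). Clec1b, the podoplanin receptor, was past 2-fold against C57BL6 WT (25.3, 47.5 and 61.9), and Treml1 (28.8, 8.6 and 52.5) and Alox12 (305.6, 184.7 and 464.7) against C57BL6/Balbc WT. Lower values came from F2rl3 (-0.47 and -0.66), Thbs1 (-0.25 and -0.44), Plek (0.10 and -0.05) and P2rx1 (0.16 and -0.71). None was called 2-fold lower, but Tubb1, Rgs18, Clec1b and Treml1 reached the minimum only in Cx30Δ/Δ and could not be called so. The chain Gp1bb of the same receptor had 60.3, 83.2 and 87.1 normalized counts, an order unlike that of Gp9 and Gp1ba. Gp5, another chain of this receptor, followed the order of Gp9 and Gp1ba but stayed below the minimum (21.0, 14.0 and 43.0).

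**Figure D2:**
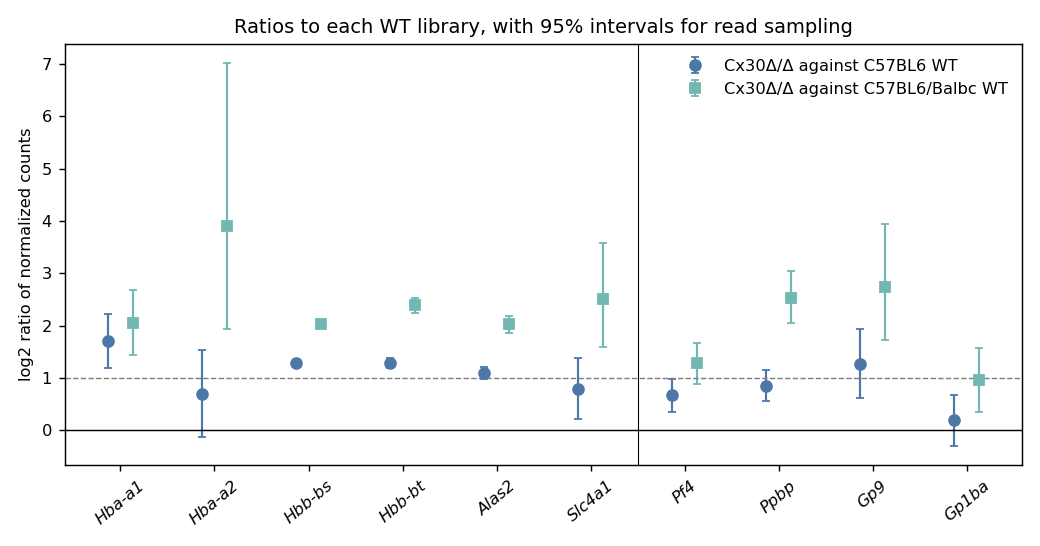
log2 ratios of normalized counts of Cx30Δ/Δ to each WT library for the 10 genes, with 95% intervals for read sampling as bars. The ratio to C57BL6/Balbc WT lies above the ratio to C57BL6 WT for every gene, and the dashed line marks 2-fold.

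The rule for calling a gene higher was a level of 50 normalized counts or more in 1 of the 2 libraries compared, with a ratio of 2 or more. By this rule 5 of the 9 genes that passed the minimum were higher in Cx30Δ/Δ than in C57BL6 WT, namely Hba-a1, Hbb-bs, Hbb-bt, Alas2 and Gp9, while 1.42% of all genes tested were. Against C57BL6/Balbc WT, 8 of 9 were higher, all except Gp1ba, and 3.95% of all genes were. The 5 called against C57BL6 WT were all called in both comparisons, as were 0.743% of all genes. Since the genes were chosen for this contrast, nothing is read from the difference between these shares. Hba-a1, Slc4a1 and Gp9 reached the minimum only in Cx30Δ/Δ, so they could not be called lower. Against C57BL6/Balbc WT this also held for Ppbp and Gp1ba. Both comparisons also use the same Cx30Δ/Δ library. Nearest to the limit, Alas2 stood at 2.13-fold and Ppbp at 1.81-fold against C57BL6 WT, and Pf4 at 2.42-fold and Gp1ba at 1.94-fold against C57BL6/Balbc WT. Intervals lay wholly above 2-fold for 3 of the genes past the minimum in the first comparison (Hba-a1, Hbb-bs and Hbb-bt) and for 7 in the second, as they did for 0.542% and 1.53% of all genes.

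The median log2 ratio of the red cell genes past the minimum was 1.28 in the comparison with C57BL6 WT and 2.05 in that with C57BL6/Balbc WT. For the platelet genes it was 0.76 and 1.91. The red cell genes ranged from 0.80 to 1.70 in the first comparison and from 2.03 to 2.52 in the second, and the platelet genes from 0.19 to 1.26 and from 0.96 to 2.74. The ranges of the 2 kinds of gene overlapped in both comparisons. Hba-a1, Slc4a1 and Gp9 enter these medians and ranges only through their level in Cx30Δ/Δ, as do Ppbp and Gp1ba against C57BL6/Balbc WT.

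The WT libraries also differed from each other in most of the 10 genes. In C57BL6/Balbc WT, 9 of the 10 genes had an interval below that of equal levels relative to C57BL6 WT, Hba-a1 being the exception (0.79-fold, 0.47 to 1.29). Of the genes past the minimum, 6 of 6 members and 31.2% of all genes had such an interval. Of the 6 genes that passed the minimum in this pair, Hbb-bt (0.47-fold, 0.42 to 0.52) and Ppbp (0.31-fold, 0.22 to 0.44) were at least 2-fold lower, as were 2.02% of all genes. Hbb-bs was at 0.59-fold (0.57 to 0.62) and Alas2 at 0.52-fold (0.46 to 0.59). The median log2 ratio was -0.94 for the red cell genes and -0.77 for the platelet genes past the minimum, set beside 1.28 and 0.76 for Cx30Δ/Δ against C57BL6 WT. For Alas2 the corresponding pair of values was -0.94 and 1.09. The further red cell and platelet genes went the other way between the WT libraries. Their median log2 ratios were 0.33 (5 of 7 genes past the minimum above 0) and 0.16 (6 of 8).

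Ratios between genes inside 1 library do not depend on its depth or scaling. Hbb-bt had 20.6 reads per 100 of Hbb-bs in C57BL6 WT (19.4 to 21.9) and 20.7 in Cx30Δ/Δ (19.8 to 21.6), and 16.2 in C57BL6/Balbc WT (14.7 to 17.8). BALB/c mice carry another haplotype of the β-globin locus, called diffuse, than the single haplotype of C57BL6 to which these gene names belong. A shorter transcript row of Hbb-bs also stood apart in C57BL6/Balbc WT, with 40 covered bases against 114 in C57BL6 WT and 110 in Cx30Δ/Δ, at 876, 1549 and 3278 reads. The part of the haplotype in the β-globin values was not tested.

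Alas2 had 14.2 reads per 100 of Hbb-bs in C57BL6 WT (13.2 to 15.2), 12.5 in C57BL6/Balbc WT (11.2 to 13.9) and 12.4 in Cx30Δ/Δ (11.8 to 13.1). Hbb-bs itself differed 4.09-fold between its lowest and highest library, and the proportion of Alas2 to it lay between 12.4 and 14.2, with intervals in C57BL6 WT and Cx30Δ/Δ that did not overlap. Proportions among the platelet genes were less even. Ppbp had 109.4 reads per 100 of Pf4 in C57BL6 WT (87.1 to 137.5), 51.9 in C57BL6/Balbc WT (34.7 to 76.6) and 124.4 in Cx30Δ/Δ (102.7 to 150.8). Gp9 had 20.8, 11.4 and 31.5 per 100 of Pf4, and Gp1ba 51.0, 45.6 and 36.6, with overlapping intervals except for Gp9 between C57BL6/Balbc WT and Cx30Δ/Δ.

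Across the 2 kinds of cell, Pf4 had 16.3 reads per 100 of Alas2 in C57BL6 WT (13.6 to 19.4), 20.4 in C57BL6/Balbc WT (15.8 to 26.1) and 12.1 in Cx30Δ/Δ (10.4 to 14.1). The last 2 intervals do not overlap. Ppbp had 17.8 (15.0 to 21.0), 10.6 (7.48 to 14.6) and 15.1 (13.1 to 17.2) reads per 100 of Alas2, lowest in C57BL6/Balbc WT instead. The platelet genes thus gave no single direction relative to Alas2. Hba-a2 per 100 of Hba-a1 was 52.3 (30.1 to 88.5), 7.14 (0.82 to 28.3) and 26.1 (17.0 to 39.0), from 2 to 31 reads of Hba-a2.

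**Figure D3:**
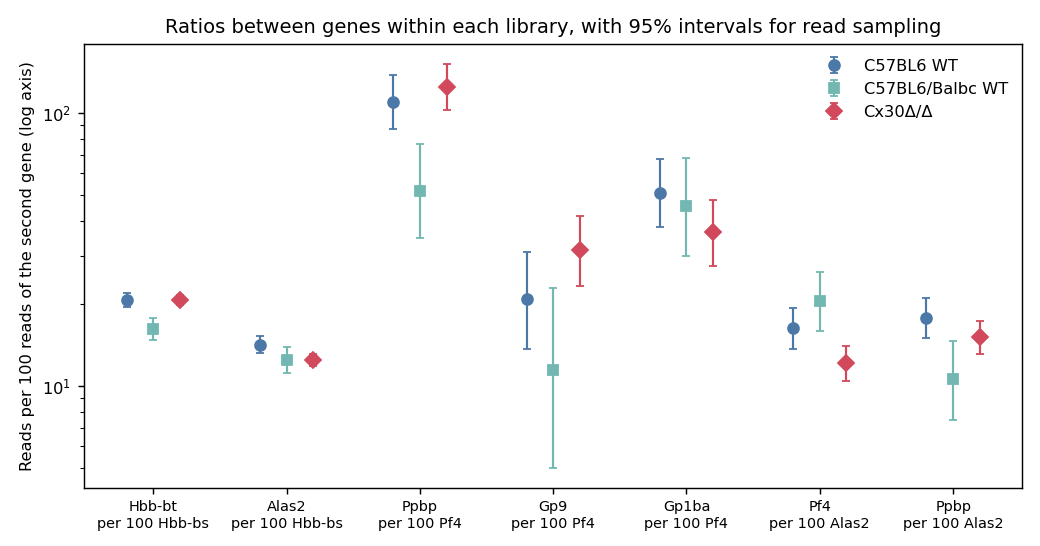
Reads of 1 gene per 100 reads of another within each library (log axis), with 95% intervals for read sampling as bars. Hbb-bt per 100 Hbb-bs is 20.6 in C57BL6 WT, 20.7 in Cx30Δ/Δ and 16.2 in C57BL6/Balbc WT, and Ppbp per 100 Pf4 is lowest in C57BL6/Balbc WT.

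Genes of another blood cell, the neutrophil, were mostly higher in Cx30Δ/Δ among those past the minimum. Of 10 neutrophil genes, 7 passed the minimum, with medians of 1.6 and 2.13. Of these, 7 were 2-fold higher in Cx30Δ/Δ than in C57BL6 WT and 6 than in C57BL6/Balbc WT. The shares of all genes tested were 1.42% and 3.95%. Camp, Mmp8 and Retnlg reached the minimum only in Cx30Δ/Δ, so they could not be called lower. The list was also written with earlier results of these data known. The summed level of the 10 genes was 574.6, 527.1 and 1641 normalized counts. S100a9, a subunit of calprotectin, had 201.7, 118.8 and 610.6, and Mmp8, neutrophil collagenase, 8.7, 19.4 and 85.0. Ltf, lactoferrin, differed from the rest, with 72.5, 219.3 and 152.1. Between the WT libraries, the 4 neutrophil genes past the minimum had a median log2 ratio of -0.67, with S100a8, S100a9 and Ngp lower in C57BL6/Balbc WT and Ltf higher. The other 3 genes stayed below the minimum. Elane and Mpo, markers of immature neutrophils, had 5, 1 and 4 reads and 23, 5 and 4 reads, and Ly6g had 0, 1 and 2. Mpo went the other way, lower in Cx30Δ/Δ than in C57BL6 WT (log2 ratio of -2.26, -4.25 to -0.71).

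Other white cells were scarce. No B cell gene passed the minimum. Of 5 T cell genes Cd4 alone did (167.7, 104.8 and 121.7 normalized counts), with Cd3e, Cd3d and Cd3g at 3 to 9 reads. Of 4 monocyte genes, Ccr2 was past 2-fold in both comparisons (53.3, 48.6 and 116.4) and Plac8 against C57BL6/Balbc WT (52.4, 14.0 and 67.1). Microglial genes, 4 of 4 past the minimum, had medians of -0.17 and 0.03. The part of blood left in the vessels in these values was not tested.

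**Figure D4:**
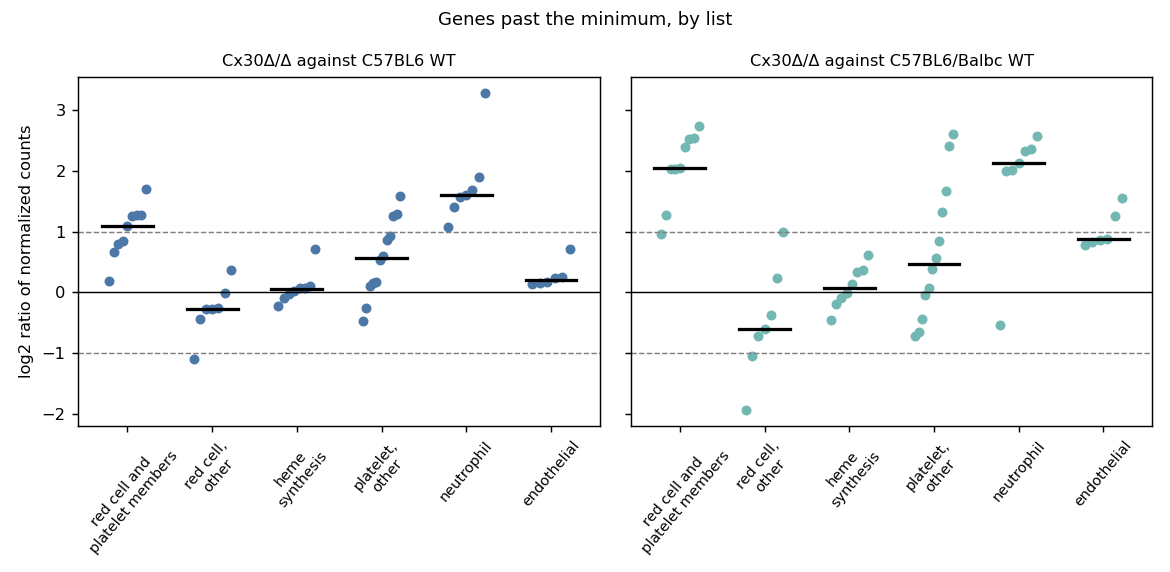
log2 ratios of Cx30Δ/Δ to C57BL6 WT (left) and to C57BL6/Balbc WT (right), 1 point per gene past the minimum, by gene list, with list medians as black bars and 2-fold as dashed lines. The 9 red cell and platelet members and the neutrophil genes lie mostly above 0, and the heme synthesis genes lie around 0.

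Endothelial genes followed the same order as the red cell and platelet genes. All 6 markers (Pecam1, Cdh5, Cldn5, Tek, Flt1 and Slco1a4) were lowest in C57BL6/Balbc WT and highest in Cx30Δ/Δ. Their summed level was 98565, 57025 and 121166 normalized counts, so Cx30Δ/Δ was 1.23-fold C57BL6 WT and 2.12-fold C57BL6/Balbc WT. Mural cell genes, 5 of 5 past the minimum, had medians of 0.23 and 0.54, and astrocyte genes, 4 of 4, of -0.25 and -0.33. Oligodendrocyte genes, 3 of 3, had medians of -0.34 and -0.59. Choroid plexus genes, 3 of 3, were highest in C57BL6 WT instead (medians of -0.75 and 0.48).

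The ratios were therefore also taken relative to the endothelial sum, a scale chosen after the values were seen. On this scale the median log2 ratio of the red cell genes was 0.98 relative to C57BL6 WT, 0.96 relative to C57BL6/Balbc WT and, over the 3 genes that passed the minimum there, -0.15 between the WT libraries. The log2 ratio of the endothelial sum, 0.30, 1.09 and -0.79, was subtracted from that of every gene, so the median of all genes shifted by as much. With each of the 6 markers alone as the scale, these medians ranged from 0.57 to 1.14, from 0.49 to 1.26 and from -0.34 to 0.15. Hbb-bs was then 1.98-fold and 1.93-fold, and Alas2 1.74-fold and 1.92-fold. Between the WT libraries Hbb-bs was at 1.03-fold and Alas2 at 0.90-fold on this scale. Slc4a1 and Hba-a1 did not follow, with Slc4a1 at 1.41-fold, 2.70-fold and, between the WT libraries, 0.52-fold, and Hba-a1 at 2.64-fold, 1.94-fold and 1.36-fold. The number of genes past 2-fold was 1 of 9 against C57BL6 WT (Hba-a1), 4 of 9 against C57BL6/Balbc WT (Hbb-bt, Slc4a1, Ppbp and Gp9), 0 in both comparisons and 0 of 6 between the WT libraries. Of all genes tested, 0.596%, 0.289%, 0.109% and 29.4% did so.

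For the platelet genes the medians on the endothelial scale were 0.46, 0.82 and 0.02. Gp1ba lay slightly below 0 in both comparisons (-0.11 and -0.13) and Pf4 slightly above (0.37 and 0.19). Ppbp (0.55 and 1.45) and Gp9 (0.97 and 1.65) stayed apart, and between the WT libraries Slc4a1, Ppbp and Gp9 remained lowest in C57BL6/Balbc WT (-0.94, -0.89 and -0.69). How much of the order of the 10 genes comes with the vessel content of each preparation was not tested.

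**Figure D5:**
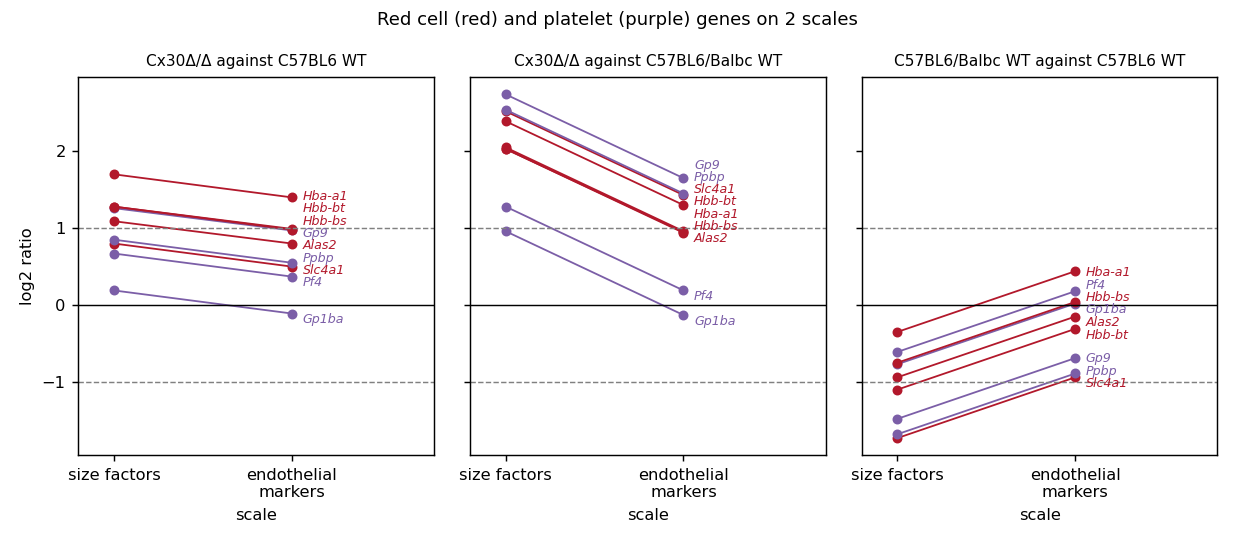
log2 ratios of 9 genes (Hba-a2 left out) in 3 comparisons, with median-of-ratios size factors (left point) and relative to the sum of 6 endothelial markers (right point). Every gene shifts by the same amount within a panel, and on the endothelial scale Hbb-bs and Alas2 lie near 1 in the first 2 panels and near 0 in the third.

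The genes whose 2 log2 ratios lay nearest to the medians of the red cell genes, among 14486 genes past the minimum in every comparison, were Ngp (distance of 0.14 on the log2 scale), Gm11832 (0.18), Tnfrsf10b (0.26), Xaf1 (0.28) and Ptpn20 (0.28). Ngp, neutrophil granule protein, had 102.2, 68.0 and 271.7 normalized counts. Nearest to the platelet medians were Armh1 (0.01), Insl3 (0.07), Junos (0.19), Gm14207 (0.20) and Ttc16 (0.22). Within a distance of 0.25 there were 2 genes for the red cell medians and 9 for the platelet medians, over 3 libraries.

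The deleted gene itself, Gjb6, had 2531 and 2426 normalized counts in the WT libraries and 100.7 in Cx30Δ/Δ. Deposited counts summed to 60725557, 53484865 and 50375426, with reads on shared exons counted once per transcript. Of the members past the minimum, Hba-a1, Slc4a1, Pf4, Ppbp, Gp9 and Gp1ba rest on 9 to 245 reads per library.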

How the data were processed

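The members and gene lists were chosen with earlier results of these data known. After quality filtering, the authors mapped reads to the mouse genome with Bowtie, which does not splice, dropped those with several matches, and deposited raw counts of alignments overlapping the exons of 82813 Ensembl transcripts, without strand. The labels name mm10, and CASAVA 1.8.2 for base calling. The authors deposited 2 more values per transcript, the count as a fraction of a library total (not used) and the bases without reads, which gave covered bases. The positions in the files do not match mm10, so coordinates are from GENCODE M21 on GRCm38, by transcript identifier, which named 69375 transcripts (83.77%).

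The row with the largest total stood for each gene. Normalized counts are counts over median-of-ratios size factors (1.1452 for C57BL6 WT, 0.9258 for C57BL6/Balbc WT, 0.9532 for Cx30Δ/Δ). Calls needed 50 normalized counts in 1 of the 2 libraries and a 2-fold ratio, after the study's thresholds, with no pseudocount. Intervals of ratios are exact Clopper-Pearson intervals of the 2 raw counts (scipy 1.17.1). The steps were tested on simulated counts. No p-value was computed, since each group has 1 library. Reachable bases are those in 50-base windows, within exons, found in no other GENCODE transcript, and intron-spanning reads were not aligned. Named genes are the 10 members, the outermost genes of each list against C57BL6 WT (up to 3 at each end), those 2-fold different in both comparisons, and the 5 nearest by Euclidean distance. Other genes were named after their values were seen. Alternatives were TMM factors (edgeR 4.0.16), total count, upper quartile, size factors of 2 libraries, summed or longest rows, a pseudocount of 1, other minimums (20, none, in each library) and folds (1.5, 3), and, chosen after seeing the data, the endothelial scale. Some listed genes are not reported here.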

Additional observations from a re-analysis of the deposited data

How the results depend on the processing

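The number of members past 2-fold was 5 against C57BL6 WT, 8 against C57BL6/Balbc WT, 5 in both and 2 between the WT libraries. Under TMM factors, total count, upper quartile, size factors of 2 libraries, summed or longest rows and a pseudocount of 1 these counts stayed within 1.5 times. With the minimum required in each library they were 3, 4, 3 and 1, since fewer genes could be called. With no minimum, or a minimum of 20, the count between the WT libraries was 5 in each case. A limit of 1.5-fold gave 8 against C57BL6 WT, 8 in both and 6 between the WT libraries, and a limit of 3-fold gave 1, 1 and 1. On the endothelial scale, chosen after seeing the data, the counts were 1, 4, 0 and 0. Of 210 values of single members under the alternatives other than the endothelial scale, 1 left its interval (Hbb-bs by total count, 2.09 on the log2 scale against C57BL6/Balbc WT), and none of the called ones changed sign. Among the further red cell genes, the count 2-fold higher in Cx30Δ/Δ than in C57BL6/Balbc WT moved from 0 to 1 under TMM factors and total count. The count 2-fold lower moved from 2 to 1 under total count. Hba-a2 rests on 2 reads in C57BL6/Balbc WT, and members under 100 reads cannot place a 2-fold difference closely. No library could be left out, since each group has 1, and the spread between mice is unknown. No paired analysis was possible because the result comes from no test and each group has 1 library.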
